A study of Mus musculus with 8 samples.

Results

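The genes described here are enzymes that place or remove chemical marks on RNA other than the main m6A writers and eraser, followed in the liver of mice described as liver knockouts of METTL14. Members were taken by symbol from the authors' deposited comparison, as the genes of the Mettl, Trmt, Nsun, Pus, Adar, Alkbh, Ftsj, Dus, Adat, Elp and Tyw families together with Dimt1, Fbl and Dkc1. The m6A genes Mettl3, Mettl14, Mettl16, Mettl5 and Alkbh5 were left out. The rule found 79 genes of the 16133 in the table. A shared name is not a shared substrate. Of the 79, 60 are known RNA modifying enzymes or partners of one, and 19 act on proteins, DNA or small molecules or have no settled substrate.

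Liver RNA came from mice of the genotype METTL14Alb, which the study calls a liver knockout (here KO), and from METTL14f/f mice (here WT). Mice of both genotypes had been injected with tunicamycin at 2 mg/kg, 24 hours before, so there is no untreated liver among the samples. Polyadenylated RNA was sequenced as input and after precipitation with an antibody against m6A, in 2 libraries for each combination of genotype and library type (8 libraries in 4 groups). Age, sex and strain are not in the labels. Nor do they state that libraries of 1 group were made from different animals, so every p-value measures only the spread between these libraries.

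METTL14 works with METTL3 to write m6A into mRNA, and tunicamycin blocks N-linked glycosylation and thereby stresses the endoplasmic reticulum. RNA carries many other marks, most of them on transfer RNA (tRNA) and ribosomal RNA (rRNA): marks in the body of a tRNA help it fold, marks in the anticodon loop tune decoding, and marks on rRNA accompany the building of ribosomes. Small molecule and protein methyltransferases with Mettl names share the fold of these enzymes but not their substrates, and the Mettl7 family is a set of membrane enzymes, abundant in liver, that methylate thiols.

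Counts per input library were recovered from the deposited means for 15947 genes (98.8%), 78 members among them, and are given below as normalized counts, that is counts divided by the size factor of the library. The KO libraries are named A and B, and the WT libraries likewise, because their replicate numbers could not be told. The genotype of each library was set from the sign of the deposited log2 change of genes with reads in that library alone. It therefore rests on the numerator as read below and is no separate check of direction. Library totals were 12301583 to 16822652 reads. The table does not name the numerator of its log2 change, which was read as KO over WT: of 347 genes above 2 with a mean of at least 100, 156 had an m6A peak listed only for KO and 0 a peak listed only for WT, and of 403 genes below -2 it was 30 and 46. The targeted gene Mettl14 had normalized counts of 64.6 (KO A) and 62.0 (KO B) against 79.8 (WT A) and 99.7 (WT B). Its log2 change in the authors' deposited table was -0.50 ± 0.41 (SE, adjusted p = 0.342), so its mRNA did not pass the test (with libraries scaled to equal totals it stood at 0.32 in limma, adjusted p = 0.306), and the deleted exon is not named in the sources used here. Among liver cell markers, 4 of 5 hepatocyte genes fell and 1 rose, while 3 of 4 cholangiocyte genes, 2 of 4 stellate genes and 2 of 2 proliferation genes rose and none of those fell. Of 4 macrophage genes 1 rose and 1 fell, and none of the 4 endothelial or 3 lymphocyte genes passed the test. Summed cholangiocyte markers stood at 753 and 636 normalized counts in the KO libraries against 109.98 and 76.8 in WT, and summed stellate markers at 5127 and 3103 against 612 and 504. Most of the stellate sum in KO A and KO B came from the collagen genes Col1a1 (1516 and 908) and Col3a1 (3145 and 1763). The stellate genes Des and Lrat were not called, at log2 changes of 0.45 and 0.40. No marker was absent from the table, and Krt7 and Top2a were at 0 in WT B. Of the hepatocyte markers, library values were recovered only for Hnf4a, at 4182 (KO A) and 4857 (KO B) against 12904 (WT A) and 11673 (WT B). In bulk liver, fewer cells of a type and less RNA per cell cannot be told apart, and the part of this difference in the results below was not tested.

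Most RNA modification enzymes did not pass the test in KO liver, and those that did moved both ways. Of the 77 tested members 10 rose, 15 fell and 52 were not called at an adjusted p under 0.05. The share called was 32.5%, below the background of 42.5% of 14257 tested genes (20.4% higher and 22.2% lower in KO). Mettl24 and Nsun7, with mean normalized counts of 2.04 and 2.05, were listed without a test. The median log2 change of the members was -0.09, against 0.046 over all tested genes. Among the 59 tested RNA enzymes and partners 8 rose and 8 fell (median -0.047). Of the 18 tested members with other or unclear substrates 2 rose and 7 fell (median -0.52). The largest rise was that of Pus1 and the largest fall that of Mettl20. Of the called members, 6 rose by at least 2-fold and 10 fell by at least 2-fold. All 24 called members with recovered counts had KO libraries that lay apart from the WT libraries. They were called from these same libraries, so this separation, here and gene by gene below, is no further support for the calls. Over the 76 tested members with counts, 52 had genotypes that did not overlap (68.4%), against a background of 76.9% of 14071 genes.

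**Figure D1:**
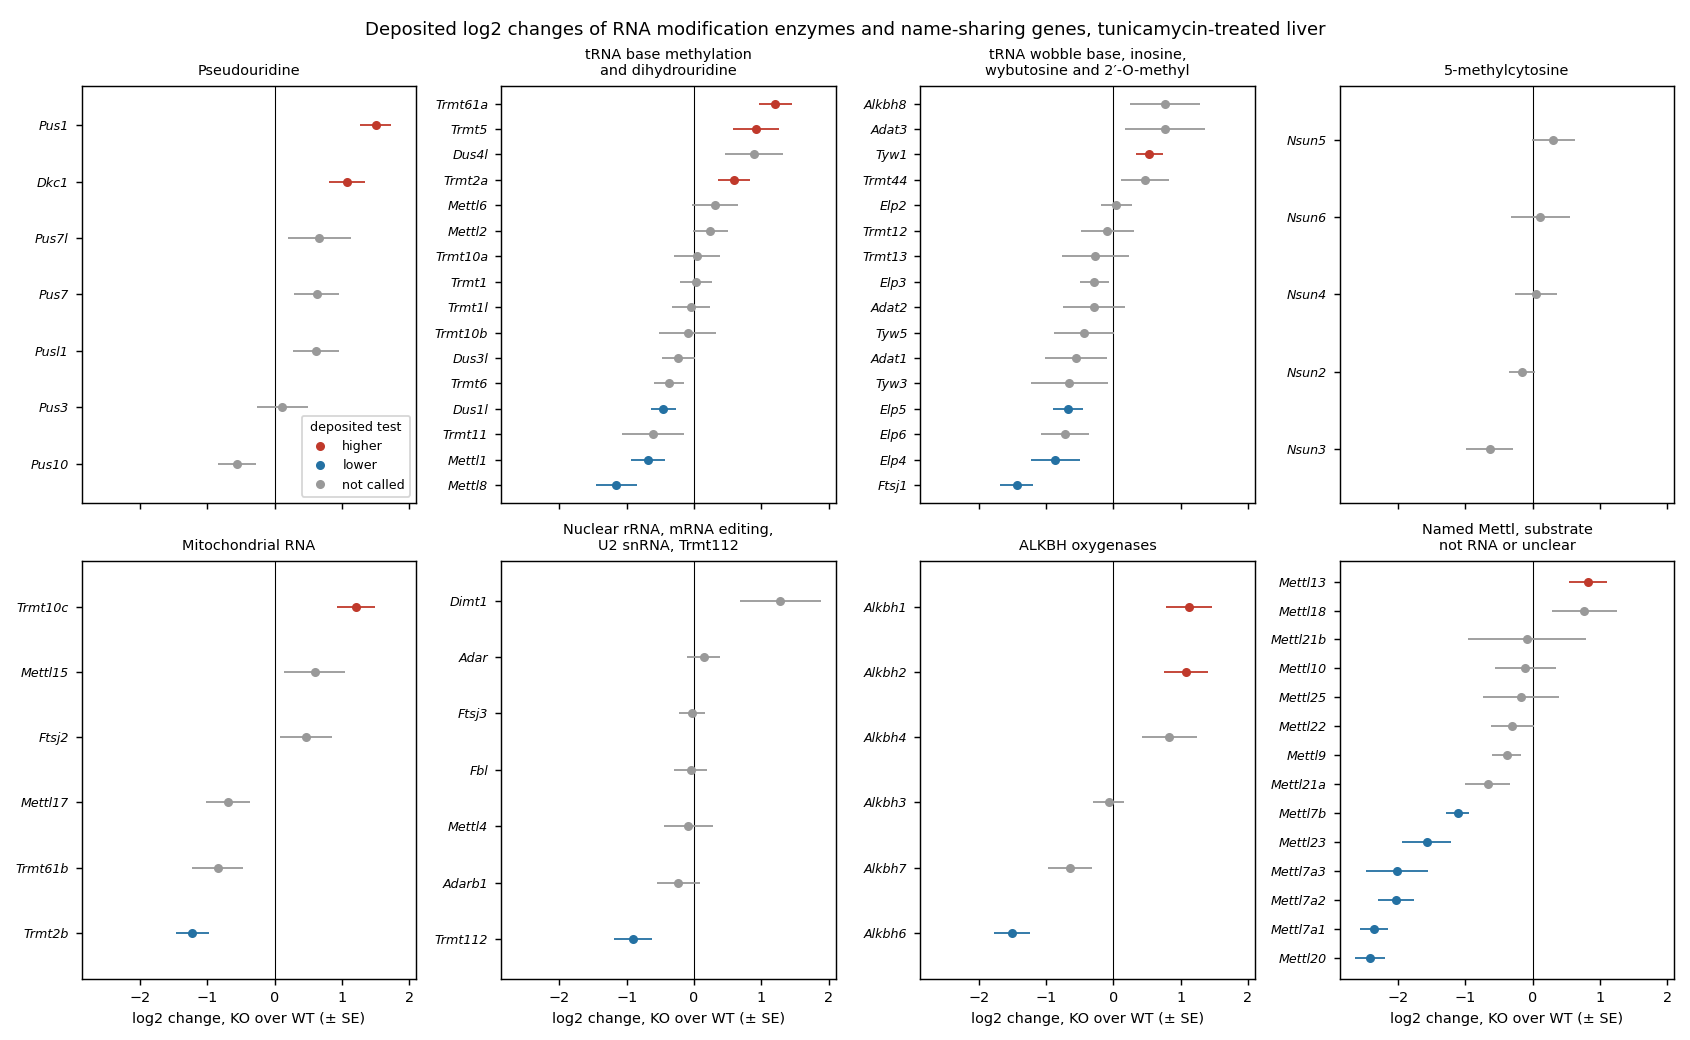
Deposited log2 change, KO over WT (x axis, points with bars of 1 SE), of the 77 tested members in panels by mark or substrate; red points passed the test as higher, blue points as lower and grey points were not called. Pus1 stands farthest right at 1.497 and Mettl20 farthest left at -2.42, and the only panel without a called gene is that of 5-methylcytosine.

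Directions near 0 depend on the scaling. The authors' size factors were 1.25 and 1.177 for KO and 0.927 and 0.743 for WT, although the WT totals were the larger. Genes whose counts were not recovered, mostly genes with a mean above 10000, held 50.5% and 50.4% of the WT reads and 36.1% and 34.9% of the KO reads. With libraries scaled to equal totals, the median of all genes moved from 0.066 to 0.87 in limma and that of the members from -0.09 to 0.73, and 44 members were called higher and 7 lower (of all genes, 58.7% were called higher and 7.55% lower, 66.2% in all). This scaling moves every member up by about 0.8, so rises grow and falls shrink by its construction, and a rise that stays called says nothing of its firmness. The falls still called were those of Mettl20, Mettl7a1, Mettl7a2, Mettl7a3, Mettl23, Alkbh6 and Ftsj1. The falls of Trmt2b, Trmt112, Mettl8 and Elp4 were no longer called, and Dus1l, Mettl1 and Elp5 changed sign. Mettl7b could not be rescaled, since its counts were not recovered. Without KO A or without KO B limma called no gene of the table at all, with 24 and 23 members at an unadjusted p under 0.05. The span of 14 called members overlaps another protein-coding gene, by 100% in Mettl7a2 (Methig1), 30.7% in Trmt112 (Prdx5), 29.6% in Trmt5 (Mnat1), 17.4% in Dus1l (Gps1), 13.9% in Trmt2a (Dgcr8) and 11.9% in Alkbh2 (Ung), and strand in counting is not stated. The span of Pus1, the largest rise, is overlapped by genes of long noncoding RNA, 80.1% by Gm15559 and 10.8% by Gm26515.

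**Figure D2:**
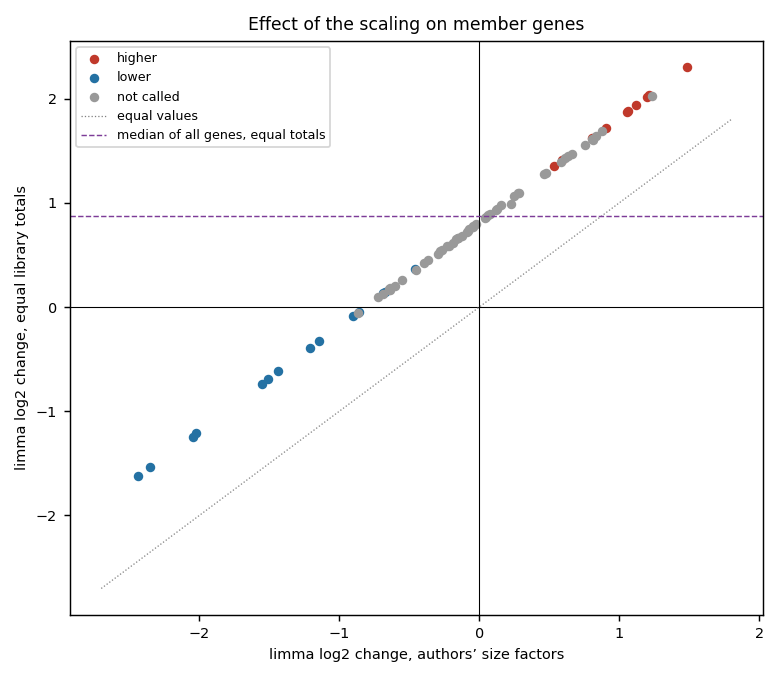
Each point is 1 of the 76 tested members with recovered counts, with the limma log2 change at the authors' size factors (x axis) against that with libraries scaled to equal totals (y axis); colours give the deposited call. Points lie on a line parallel to the dotted line of equal values and about 0.8 above it, near the dashed median of all genes at 0.87 for members close to 0, and the 7 lowest blue points, from Mettl20 to Ftsj1, are those whose fall was still called.

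Pseudouridine enzymes held the largest rise. Pus1, which makes pseudouridine in tRNA and mRNA, lies on chromosome 5, 110773667 to 110780649 (mm10, the build of all positions here). Normalized counts of Pus1 were 706 (KO A) and 884 (KO B) against 287 (WT A) and 276 (WT B). Both KO libraries were above both WT libraries, and in the authors' deposited table Pus1 rose by 1.497 ± 0.23 (SE, adjusted p = 1.47e-09). Dkc1 (dyskerin, chromosome X, 75095854 to 75109776) is the catalytic subunit of the box H/ACA particles that guide pseudouridine to rRNA and small nuclear RNA. Its normalized counts were 323 (KO A) and 360.3 (KO B) against 161 (WT A) and 164 (WT B), again with no overlap. Dkc1 rose by 1.07 ± 0.27 (SE, adjusted p = 3.12e-04) in the authors' deposited table. The other 5 members (Pus7l, Pus7, Pusl1, Pus3 and Pus10) did not pass the test, with values from -0.56 for Pus10 to 0.66 for Pus7l in the authors' deposited table. Of the 7 members 2 rose and none fell (28.6% called, against 42.5% of all tested genes), and the median was 0.62.

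The start region of Pus1 holds the letters of an E-box, the motif bound by MYC and MAX, and is shown with the other called members that have this motif. Windows from 250 bases before to 50 bases after each start (RefSeq, GRCm38.p6) were found for 67 of the 79 members and searched for CACGTG, which reads the same on both strands. Among these, 10 of 67 members held it, namely 3 of 10 that rose, 1 of 14 that fell and 6 of 41 not called. The share was 8.09% of 27025 genes with a window. Those include genes outside the 16133 of the expression table, so the shares are not like for like. Each line gives 30 bases of the gene's strand, with the motif in capitals. 
Pus1 (rose, chr5:110780576-110780605, minus strand): tccgccttcgtgCACGTGgtcagcttcggg
Trmt61a (rose, chr12:111678118-111678147, plus strand): ccgccgtggagcCACGTGtggagccgggag
Mettl13 (rose, chr1:162548475-162548504, minus strand): gtgtggctgctgCACGTGgggcgcggaccg
Mettl1 (fell, chr10:127041950-127041979, plus strand): agctcggctctcCACGTGgactgcgtggca
The member that fell holds the same letters as the 3 that rose, and a match of letters is a description only.

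Enzymes that methylate tRNA bases split in both directions. Trmt61a (chromosome 12, 111678105 to 111683902) is the catalytic subunit for 1-methyladenosine in the T loop and had normalized counts of 516 (KO A) and 597 (KO B) against 232 (WT A) and 250.5 (WT B). Its KO libraries were at least 2 times as high as either WT library, and Trmt61a rose by 1.21 ± 0.24 (SE, adjusted p = 3.67e-06) in the authors' deposited table. Trmt6, its non-catalytic partner, did not pass the test: normalized counts were 427 (KO A) and 436 (KO B) against 516 (WT A) and 599 (WT B), with a value of -0.37 ± 0.23 (SE, adjusted p = 0.182) in the authors' deposited table. With equal totals Trmt6 stood at 0.45 and Trmt61a at 2.02. Trmt5 (chromosome 12, 73268515 to 73286975), which methylates the guanosine beside the anticodon, had normalized counts of 159 (KO A) and 204 (KO B) against 86.3 (WT A) and 106 (WT B). Its genotypes did not overlap and Trmt5 rose by 0.92 ± 0.34 (SE, adjusted p = 0.0187) in the authors' deposited table. The most abundant enzyme of tRNA guanosine methylation, Trmt1, had 753 (KO A) and 889.7 (KO B) against 946 (WT A) and 663 (WT B) normalized counts. Those ranges overlapped, and the deposited value of Trmt1 was 0.029 ± 0.23 (SE, adjusted p = 0.935) in the authors' deposited table. Trmt11, Trmt10b, Trmt1l and Trmt10a were not called either, from -0.61 to 0.042 in the authors' deposited table. Trmt2a (chromosome 16, 18248847 to 18254772), which makes 5-methyluridine of the T loop, had normalized counts of 461 (KO A) and 475 (KO B) against 312 (WT A) and 308 (WT B). Replicates of Trmt2a were close together, and it rose by 0.59 ± 0.23 (SE, adjusted p = 0.0292) in the authors' deposited table.

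Mettl1, Mettl8 and Dus1l fell at the authors' size factors, and none of these falls was called with equal totals. Mettl1 (chromosome 10, 127041549 to 127046365) catalyses 7-methylguanosine with its partner Wdr4. Normalized counts of Mettl1 were 229 (KO A) and 246 (KO B) against 357 (WT A) and 409 (WT B). Mettl1 fell by 0.69 ± 0.25 (SE, adjusted p = 0.0176) in the authors' deposited table and stood at 0.13 with equal totals (limma, adjusted p = 0.462). Wdr4 had 0.21 ± 0.26 (SE, adjusted p = 0.545) in the authors' deposited table and was not called. Mettl8 (chromosome 2, 70964561 to 71056388), which makes 3-methylcytidine in mitochondrial tRNA, had normalized counts of 102 (KO A) and 116 (KO B) against 264 (WT A) and 221 (WT B). It fell by 1.16 ± 0.30 (SE, adjusted p = 6.02e-04) in the authors' deposited table, and with equal totals its value was -0.33 (limma, adjusted p = 0.169). The cytosolic 3-methylcytidine enzymes Mettl2 and Mettl6 had 0.24 ± 0.26 (SE, adjusted p = 0.493) and 0.31 ± 0.34 (SE, adjusted p = 0.491) in the authors' deposited table. Mettl2, the most abundant of them, had normalized counts of 328 (KO A) and 387 (KO B) against 339.6 (WT A) and 265 (WT B), with genotypes that overlapped. Dus1l (chromosome 11, 120787559 to 120796427), a dihydrouridine synthase and the most abundant of the RNA enzymes, had normalized counts of 1319.7 (KO A) and 1293 (KO B) against 1802 (WT A) and 1786 (WT B). Each pair of replicates was close, and Dus1l fell by 0.46 ± 0.18 (SE, adjusted p = 0.0332) in the authors' deposited table, but with equal totals it was called in the other direction at 0.36 (limma, adjusted p = 0.0312). Dus3l and Dus4l were not called (-0.23 and 0.89 in the authors' deposited table).

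Among enzymes of tRNA wobble marks, inosine, wybutosine and 2′-O-methylation, 1 of 16 rose and 3 fell. Of all tested genes 20.4% rose and 22.2% fell. Ftsj1 (chromosome X, 8238668 to 8252406), the 2′-O-methyltransferase of the anticodon loop, had normalized counts of 179 (KO A) and 209.9 (KO B) against 528 (WT A) and 525 (WT B). The WT libraries were more than 2 times as high as either KO library, and Ftsj1 fell by 1.44 ± 0.24 (SE, adjusted p = 3.86e-08) in the authors' deposited table and kept a call with equal totals at -0.62. Trmt44 and Trmt13, which place the same methyl group elsewhere on tRNA, were at 0.47 and -0.27 in the authors' deposited table, neither called. Tyw1 (chromosome 5, 130255572 to 130341568), an early enzyme of wybutosine, the bulky guanosine beside the anticodon of phenylalanine tRNA, had normalized counts of 949.9 (KO A) and 955 (KO B) against 642 (WT A) and 675 (WT B). The KO libraries of Tyw1 were nearly equal, and it rose by 0.53 ± 0.20 (SE, adjusted p = 0.0221) in the authors' deposited table. The other wybutosine genes Trmt12, Tyw5 and Tyw3 were not called, from -0.65 to -0.089 in the authors' deposited table. Inosine enzymes were not called: Adat1, Adat2 and Adat3 had -0.56, -0.29 and 0.77 in the authors' deposited table. Normalized counts of Adat1 were 40.6 (KO A) and 86.7 (KO B) against 86.3 (WT A) and 101 (WT B), so that its KO libraries differed by more than 2-fold, and those of Adat2 were 46.2 (KO A) and 60.3 (KO B) against 66.8 (WT A) and 63.3 (WT B).

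Elongator, the complex that begins the side chain of the wobble uridine, had 5 subunits under this name, of which 2 fell. The share called was 40.0%, beside 42.5% of all tested genes. Elp5 (chromosome 11, 69968224 to 69981447), an accessory subunit, had normalized counts of 367 (KO A) and 393 (KO B) against 626 (WT A) and 587 (WT B). It fell by 0.67 ± 0.22 (SE, adjusted p = 0.00761) in the authors' deposited table and stood at 0.15 with equal totals (limma, adjusted p = 0.347). Elp4 (chromosome 2, 105697320 to 105904564) was less abundant, at 76.5 (KO A) and 68.8 (KO B) against 125 (WT A) and 140.1 (WT B) normalized counts. Elp4 fell by 0.87 ± 0.36 (SE, adjusted p = 0.0422) in the authors' deposited table and was no longer called with equal totals, at -0.046. Elp6, the third accessory subunit, was at -0.71 ± 0.36 (SE, adjusted p = 0.0933) in the authors' deposited table. The catalytic subunit Elp3 had normalized counts of 618 (KO A) and 597 (KO B) against 675 (WT A) and 804 (WT B). Its genotypes did not overlap, but the difference of -0.28 ± 0.21 (SE, adjusted p = 0.297) in the authors' deposited table did not pass the test, and the sign turned with equal totals (0.54). Elp2 was at 0.039 in the authors' deposited table. The scaffold subunit is listed as Ikbkap, outside the rule, and rose by 0.81 ± 0.24 (SE, adjusted p = 0.00211) in the authors' deposited table. Alkbh8, which methylates the same side chain, had 0.77 ± 0.53 (SE, adjusted p = 0.244) in the authors' deposited table.

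Some called enzymes of tRNA also hold the full cyclic AMP response element, a motif bound by CREB and ATF factors. TGACGTCA, the same on both strands, was found in 5 of 67 members with a window: Tyw1, Trmt5 and Trmt61a of 10 that rose, none of 14 that fell, and Mettl4 and Pus10 of 41 not called. Its share over 27025 genes, again not limited to those of the expression table, was 2.03%. In Trmt61a it lies beside the E-box shown above. The lines give 30 bases of the gene's strand with the element in capitals. 
Tyw1 (chr5:130255594-130255623, plus strand): tcgttctgtgaTGACGTCAtttacaggcgc
Trmt5 (chr12:73286716-73286745, minus strand): gccagcagtgaTGACGTCAccagcctccga
Trmt61a (chr12:111678074-111678103, plus strand): ctgcgttggttTGACGTCAtcaaaaagcac
All 3 elements lie within 50 bases of a tabled start of their gene. In Trmt5 and Tyw1 that start lies inside the span given above, not at its 5′ end. No data of this series show a factor there. The same windows were also searched for the ER (endoplasmic reticulum) stress element, the C/EBP-ATF composite and the UPR (unfolded protein response) element. The ER stress element was in 0 of 67 members, against 0.137% of genes. The C/EBP-ATF composite was in 1 of 67 (Pus7, not called), against 1.08%. The UPR element was in 1 of 67 (Ftsj1, which fell), against 0.714%. None of them was in any of the 10 members that rose.

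**Figure D3:**
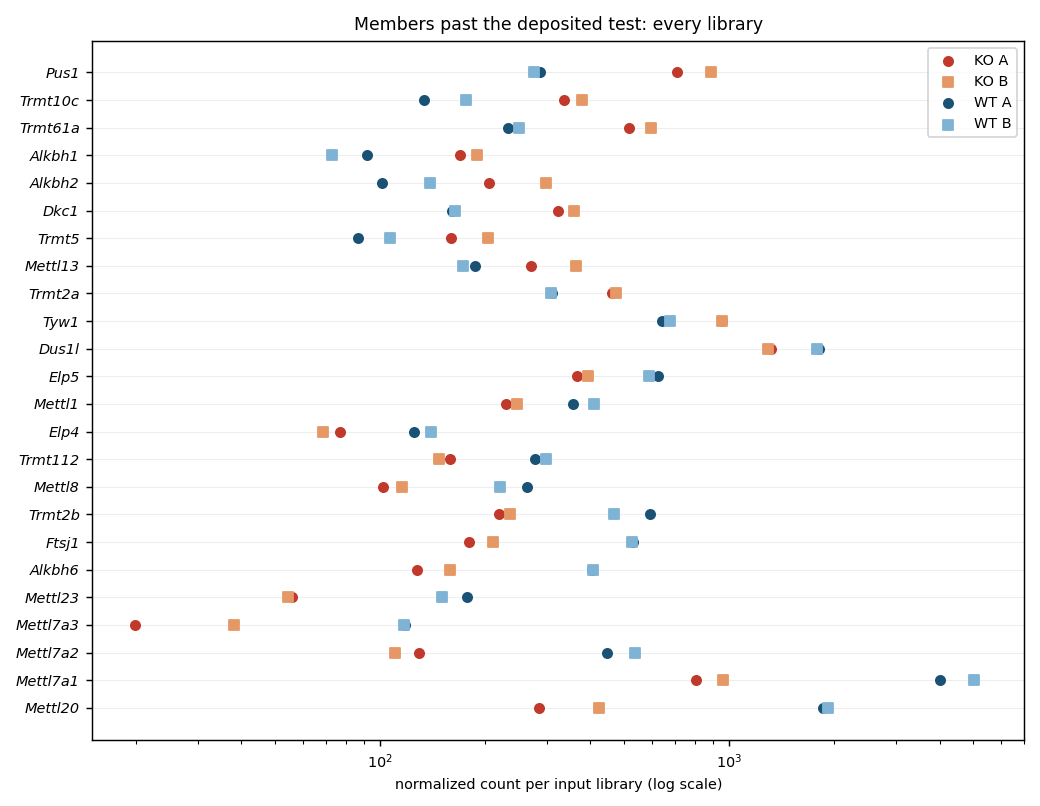
Normalized counts in each of the 4 input libraries (x axis, log scale) for the 24 called members with recovered counts, ordered by deposited log2 change from Pus1 at the top to Mettl20 at the bottom. In every row the KO pair and the WT pair lie apart, from a narrow gap in Dus1l and Tyw1 to a wide one in Mettl7a1 and Mettl20. The rows were chosen by a test on the same libraries, so the gaps are no further support.

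None of the 5 tested enzymes of 5-methylcytosine passed the test. Nsun2, which methylates tRNA and mRNA, was the most abundant, with normalized counts of 1253 (KO A) and 1291 (KO B) against 1501 (WT A) and 1335 (WT B). Its value of -0.16 ± 0.19 (SE, adjusted p = 0.546) in the authors' deposited table was small beside its SE, and with equal totals it was 0.67 and called (limma, adjusted p = 0.00284). Nsun4, a mitochondrial rRNA enzyme, had normalized counts of 182 (KO A) and 178 (KO B) against 147 (WT A) and 202 (WT B), with overlap, and 0.050 ± 0.31 (SE, adjusted p = 0.916) in the authors' deposited table. Nsun3, Nsun5 and Nsun6 lay from -0.64 to 0.30 in the authors' deposited table.

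Of 10 members grouped here as acting on mitochondrial RNA, with Mettl8, Nsun3, Nsun4 and Pusl1 described above counted in, 1 rose and 2 fell. The share called was 30.0%, against 42.5% of all tested genes. The group was set by hand and is not complete, so this balance depends on the choice. Alkbh1, which is partly mitochondrial and rose, was counted with the ALKBH proteins below. Trmt10c (chromosome 16, 56033720 to 56037786) is the methyltransferase subunit of mitochondrial RNase P. Normalized counts of Trmt10c were 337 (KO A) and 379 (KO B) against 134 (WT A) and 176 (WT B). It rose by 1.21 ± 0.28 (SE, adjusted p = 7.78e-05) in the authors' deposited table. Hsd17b10, its partner in that enzyme and also a dehydrogenase, fell by 1.36 ± 0.21 (SE, adjusted p = 5.72e-10) in the authors' deposited table, with normalized counts of 818 (KO A) and 908 (KO B) against 2504 (WT A) and 1927 (WT B). Both subunits lay apart between genotypes, in opposite directions. Trmt2b (chromosome X, 134222955 to 134277023), which makes 5-methyluridine in mitochondrial RNA, had normalized counts of 218 (KO A) and 236 (KO B) against 593 (WT A) and 467 (WT B). Trmt2b fell by 1.22 ± 0.25 (SE, adjusted p = 5.83e-06) in the authors' deposited table and stood at -0.39 with equal totals, not called. Trmt61b was at -0.85 ± 0.38 (SE, adjusted p = 0.056) in the authors' deposited table, just outside the threshold. Mettl17, a factor of mitochondrial ribosome assembly, had normalized counts of 119.5 (KO A) and 99.4 (KO B) against 158 (WT A) and 195 (WT B) and -0.69 ± 0.33 (SE, adjusted p = 0.0778) in the authors' deposited table. Ftsj2, the 2′-O-methyltransferase listed by RefSeq as Mrm2, had normalized counts of 100.4 (KO A) and 113 (KO B) against 71.2 (WT A) and 83.5 (WT B) and 0.47 ± 0.38 (SE, adjusted p = 0.34) in the authors' deposited table. The span of Ftsj2 lies wholly inside that of Nudt1. Mettl15, a mitochondrial rRNA cytidine methyltransferase, was at 0.59 in the authors' deposited table.

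None of the 3 nuclear rRNA enzymes and 2 mRNA editors under the rule was called. Of 4 other nuclear rRNA genes outside it, only Emg1 was called. Emg1 fell by 0.78 ± 0.21 (SE, adjusted p = 9.15e-04) in the authors' deposited table and stood at 0.029 with equal totals. Nop2, a further rRNA enzyme outside the rule, rose and is described below. Fbl (fibrillarin, the catalytic subunit of the box C/D particles) had normalized counts of 385 (KO A) and 473 (KO B) against 489.5 (WT A) and 396 (WT B), with overlapping genotypes, and -0.047 ± 0.24 (SE, adjusted p = 0.901) in the authors' deposited table. Ftsj3, a pre-rRNA processing factor, had normalized counts of 1307 (KO A) and 1377 (KO B) against 1462 (WT A) and 1275 (WT B) and -0.029 ± 0.19 (SE, adjusted p = 0.922) in the authors' deposited table. Dimt1, which dimethylates the small subunit rRNA, had a larger but uncertain value of 1.28 ± 0.60 (SE, adjusted p = 0.0738) in the authors' deposited table at a mean normalized count of 34.2. Adar, the editor of adenosine to inosine in double-stranded RNA, had normalized counts of 483 (KO A) and 488 (KO B) against 373 (WT A) and 508 (WT B). Adarb1, the second editor, had 214 (KO A) and 251 (KO B) against 350.4 (WT A) and 194 (WT B). Both overlapped between genotypes, and their values were 0.14 ± 0.24 (SE, adjusted p = 0.681) and -0.23 ± 0.32 (SE, adjusted p = 0.598) in the authors' deposited table. Mettl4, which methylates U2 small nuclear RNA, had normalized counts of 108 (KO A) and 94.3 (KO B) against 97.0 (WT A) and 119 (WT B) and -0.085 ± 0.36 (SE, adjusted p = 0.878) in the authors' deposited table. Trmt112 (chromosome 19, 6909698 to 6911028), the small activating partner of Trmt11 and of several other RNA and protein methyltransferases, had normalized counts of 159 (KO A) and 148 (KO B) against 277 (WT A) and 298 (WT B). It fell by 0.91 ± 0.28 (SE, adjusted p = 0.00358) in the authors' deposited table and was at -0.086 with equal totals, not called.

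ALKBH proteins are oxygenases, of which some remove methyl groups from RNA or DNA; 2 of 6 rose and 1 fell. Alkbh1 (chromosome 12, 87428077 to 87443839), which acts on tRNA and is partly mitochondrial, had normalized counts of 169 (KO A) and 189 (KO B) against 91.6 (WT A) and 72.7 (WT B). It rose by 1.12 ± 0.34 (SE, adjusted p = 0.00366) in the authors' deposited table. Alkbh2 (chromosome 5, 114123926 to 114131233), a DNA repair demethylase, had normalized counts of 206 (KO A) and 299 (KO B) against 101 (WT A) and 139 (WT B). Alkbh2 rose by 1.08 ± 0.33 (SE, adjusted p = 0.00355) in the authors' deposited table, with genotypes that did not overlap. Alkbh6 (chromosome 7, 30308753 to 30314303), whose substrate is unsettled, went the other way, with normalized counts of 128 (KO A) and 158 (KO B) against 404 (WT A) and 408 (WT B). It fell by 1.51 ± 0.27 (SE, adjusted p = 1.33e-07) in the authors' deposited table and kept a call with equal totals at -0.69. Alkbh3, a demethylase of RNA and single-stranded DNA and the most abundant of the 6, had normalized counts of 417 (KO A) and 506 (KO B) against 484 (WT A) and 482 (WT B). The genotypes overlapped, and Alkbh3 was at -0.067 ± 0.23 (SE, adjusted p = 0.849) in the authors' deposited table. Alkbh4 and Alkbh7 were not called (0.83 and -0.65 in the authors' deposited table).

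Genes that carry a Mettl name but have a substrate other than RNA, or no settled substrate (Mettl25), held the 4 largest falls. Of 14 tested 6 fell and 1 rose. Mettl20 (chromosome 6, 149141476 to 149151171; RefSeq Etfbkmt) methylates a lysine of the electron transfer flavoprotein in mitochondria. Normalized counts of Mettl20 were 285 (KO A) and 424 (KO B) against 1859 (WT A) and 1923 (WT B). Each WT library was at least 4 times as high as either KO library, and Mettl20 fell by 2.42 ± 0.23 (SE, adjusted p = 1.67e-24) in the authors' deposited table. Mettl7a1 (chromosome 15, 100304145 to 100330001), a thiol methyltransferase of intracellular membranes, had normalized counts of 805 (KO A) and 961 (KO B) against 4019.5 (WT A) and 5037 (WT B). It fell by 2.36 ± 0.20 (SE, adjusted p = 6.35e-30) in the authors' deposited table, and its copies Mettl7a2 and Mettl7a3 by 2.03 ± 0.27 (adjusted p = 3.00e-13) and 2.02 ± 0.46 (adjusted p = 5.77e-05). Normalized counts of Mettl7a2 were 129 (KO A) and 110.5 (KO B) against 445 (WT A) and 537 (WT B). These genes are close copies on the same chromosome, the span of Mettl7a2 lies wholly inside that of Methig1, and how reads were assigned among them is not stated, so their separate values are uncertain. Mettl7b (chromosome 10, 128958277 to 128960988), the most abundant member with a mean normalized count of 35830.4, fell by 1.12 ± 0.18 (SE, adjusted p = 2.10e-09) in the authors' deposited table; its library values were not recovered. All 4 Mettl7 genes fell, as did 4 of 5 hepatocyte markers; the part of hepatocyte number in this was not tested. Mettl23, a histone arginine methyltransferase, fell by 1.57 ± 0.36 (SE, adjusted p = 6.83e-05) in the authors' deposited table.

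The rise in this set was that of Mettl13 (chromosome 1, 162533671 to 162548541; RefSeq Eef1aknmt), which methylates the translation factor eEF1A. Normalized counts of Mettl13 were 271 (KO A) and 363 (KO B) against 187 (WT A) and 172 (WT B), apart between genotypes. Mettl13 rose by 0.82 ± 0.28 (SE, adjusted p = 0.0113) in the authors' deposited table. The other tested members, Mettl9, Mettl10, Mettl18, Mettl21a, Mettl21b, Mettl22 and Mettl25, were not called and lay from -0.67 to 0.77 in the authors' deposited table. The tabled windows of Mettl7a1 and Mettl7a2 are shown because the genes fell alike: aligned over their windows of 300 bases they shared 176 positions, 54.3% of the alignment with its 48 gapped positions. The lines give 85 bases upstream of each tabled start, with the letters attggct or attggtg of an inverted CCAAT box within them. This motif was found in 41.1% of genes and 31 of 67 members with a window. The tabled start of Mettl7a1 lies inside the span given above, downstream of its first base, so the stretch shown lies inside that span too. 
Mettl7a1 (chr15:100304732-100304816, plus strand): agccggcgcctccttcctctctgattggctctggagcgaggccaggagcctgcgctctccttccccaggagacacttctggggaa
Mettl7a2 (chr15:100353115-100353199, plus strand): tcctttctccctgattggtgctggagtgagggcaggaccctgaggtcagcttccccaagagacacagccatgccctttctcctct
The stretches are similar and not identical.

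Enzymes and partners outside the rule that belong to the same pathways were called about as often as other genes. Among 61 such genes, 17 rose, 10 fell and 34 were not called, a share of 44.3% beside the 42.5% of all tested genes, with a median log2 change of 0.19. With equal totals 53 of the 61 values were positive, limma called 49 higher and 2 lower, and of the 10 falls those of Hsd17b10 and Osgep were still called while A1cf and Emg1 turned positive (0.014 and 0.029). For the box H/ACA particle of Dkc1, Gar1, Nhp2 and Shq1 rose and Nop10 fell, of 5 genes. Gar1 had normalized counts of 423 (KO A) and 485 (KO B) against 122 (WT A) and 117 (WT B) and rose by 1.93 ± 0.27 (SE, adjusted p = 9.73e-12) in the authors' deposited table. For the box C/D particle, Nop56 and Nop58 rose of 3 genes while Fbl was not called. The group of genes for threonylcarbamoyl adenosine, a tRNA mark beside the anticodon, held 4 falls among 5 genes. Of these, Tprkb had normalized counts of 528 (KO A) and 549.8 (KO B) against 1157 (WT A) and 1077 (WT B) and fell by 1.05 ± 0.20 (SE, adjusted p = 1.42e-06) in the authors' deposited table. With equal totals only Osgep of these 4 falls was still called (-0.49, limma, adjusted p = 0.047), and Tprkb was not, at -0.23 (adjusted p = 0.136). Lcmt2, a late enzyme of wybutosine and so a partner of Tyw1, had normalized counts of 541 (KO A) and 608 (KO B) against 121 (WT A) and 132 (WT B) and rose by 2.19 ± 0.26 (SE, adjusted p = 2.91e-16) in the authors' deposited table. Rnmtl1, a 2′-O-methyltransferase of mitochondrial rRNA, had normalized counts of 444 (KO A) and 512 (KO B) against 162 (WT A) and 123 (WT B) and rose by 1.74 ± 0.27 (SE, adjusted p = 1.30e-09) in the authors' deposited table. Nop2, a nucleolar 5-methylcytosine enzyme of rRNA, had normalized counts of 1167 (KO A) and 1316 (KO B) against 556 (WT A) and 436 (WT B) and rose by 1.32 ± 0.22 (SE, adjusted p = 1.29e-08) in the authors' deposited table, whereas none of the Nsun members was called. Rpusd1, a pseudouridine synthase, and Cmtr2, a cap 2′-O-methyltransferase, rose by 2.33 ± 0.39 (SE, adjusted p = 1.52e-08) and 2.65 ± 0.45 (SE, adjusted p = 4.15e-08) in the authors' deposited table, both at low means of 114 and 87.0. Normalized counts of Rpusd1 were 204 (KO A) and 175 (KO B) against 31.3 (WT A) and 44.4 (WT B), and those of Cmtr2 were 147 (KO A) and 153 (KO B) against 16.2 (WT A) and 32.3 (WT B).

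Antibody-enriched m6A peaks were listed for 29 of the 79 members (36.7%), against 37.9% of all genes in the table. Of these, 10 had a peak in both lists, 19 only in KO and none only in WT, against 16.9%, 19.4% and 1.59% of all genes. The lists differ in length, with 5586 peaks in WT and 12290 in KO, and there is 1 list per genotype, so a peak present in KO alone does not show more m6A in KO. Abundance moved with the presence of a peak. Above a mean of 300, 17 of 25 members had a peak (68.0%, against 80.5% of all genes), between 100 and 300 it was 11 of 30 (36.7%, against 36.2%), and at a mean of up to 100 it was 1 of 24 (4.17%, against 2.08%). The member in the lowest class was Pus3. All 10 members with a peak in both lists had a mean above 300: Dus1l, Dus3l, Elp3, Fbl, Ftsj3, Mettl20, Mettl7a1, Mettl7b, Pus1 and Trmt1. Members with a peak in the KO list alone were Adar, Adarb1, Alkbh1, Alkbh3, Alkbh6, Alkbh7, Elp5, Mettl4, Mettl6, Mettl8, Mettl9, Nsun4, Pus3, Trmt10c, Trmt112, Trmt2a, Trmt5, Trmt6 and Trmt61a. Of the 10 members that rose 6 had a peak, 1 in both lists and 5 in KO alone, and of the 15 that fell 8 had one, 4 in both and 4 in KO alone. These shares of 60.0% and 53.3% stand beside 42.4% of all genes that rose and 68.1% of all that fell.

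**Figure D4:**
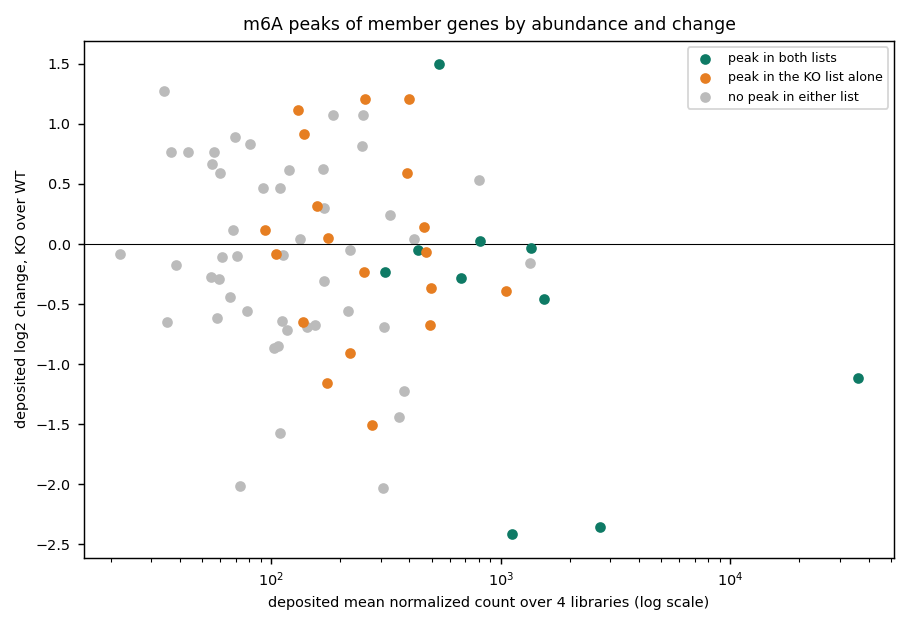
Each of the 77 tested members is a point at its mean normalized count over the 4 input libraries (x axis, log scale) and its deposited log2 change (y axis); green points have a peak in both lists, orange points in the KO list alone and grey points in neither. Green points lie at means above 300, on both sides of the line at 0, and most points below a mean of 100 are grey.

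The members held 18 peaks in the WT list and 51 in the KO list. Of these, 13 WT peaks and 12 KO peaks overlapped one of the other list by at least 1 base (6 and 6 where at least 50% of each peak was asked for). The enrichment is the authors' own ratio for each peak. Its median was 10.1 over the WT peaks of members, against 24.2 over all WT peaks, and 13.6 over the KO peaks of members, against 13.1 over all KO peaks. Dus3l had the highest value of the members in WT, a peak of enrichment 333 at chr17:56764801-56765530 near its start, and its KO peak of enrichment 67.0 shared 148 bases with it. Adarb1 had the highest in KO, a peak of enrichment 145 at chr10:77294618-77294766 near the end of the gene, with none in WT. Pus1 had WT peaks of enrichment 13.2 and 22.9 and a KO peak of enrichment 4.71 at chr5:110774657-110774754, at 85.1% of the gene's span from its 5′ end. Elp3 had a KO peak of enrichment 54.5, in 3 blocks, that shared 49 bases with a WT peak of enrichment 27.9. Mettl7a1 had 4 WT and 3 KO peaks, and 1 of its WT peaks had a p of 0.134. The KO peak of highest enrichment (11.9, chr15:100304868-100305064) lay 723 bases inside the span but just past the end of the gene's tabled start window. Trmt61a had 3 peaks, Adar 6 and Trmt2a 3, in the KO list alone. Enrichments from different lists are not compared here.

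**Figure D5:**
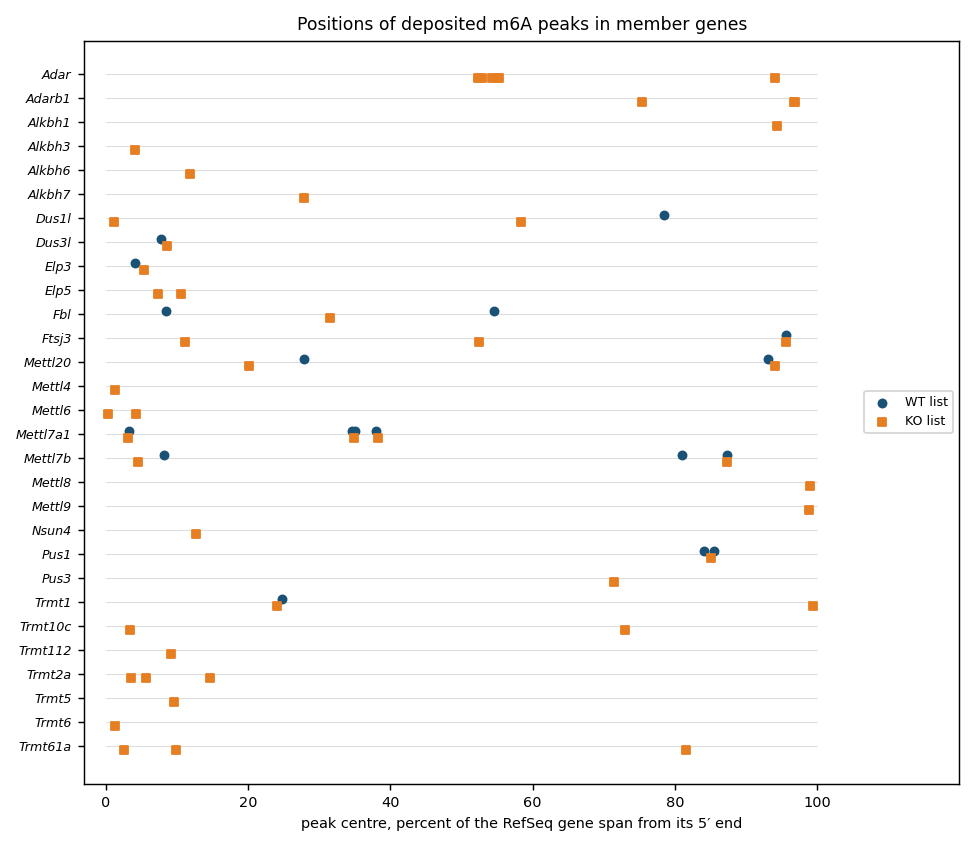
Centres of the 18 WT peaks (circles) and 51 KO peaks (squares) of members, as a percent of the RefSeq gene span from its 5′ end (x axis), with 1 row for each of the 29 genes. Shared positions are visible in Dus3l, Ftsj3, Mettl7a1 and Pus1.

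The position of member peaks was set beside that of all peaks of the same list. Of 51 KO peaks 18 (35.3%) began within 500 bases of the gene's start, against 28.6% of all KO peaks that fall inside their gene's span. In the last 10% of the span were 9 (17.6%), against 31.8% of all KO peaks. Of 18 WT peaks 2 (11.1%) began within 500 bases of the start, against 28.3% of all WT peaks, and 2 (11.1%) were in the last 10% of the span, against 30.4%. Several peaks come from the same gene, and these shares were not tested. Introns are part of these spans, exons and untranslated regions were not placed, and a peak of several blocks was placed by the middle of its whole extent. m6A is written at the letters DRACH (D is A, G or T, R is A or G, H is A, C or T). Sequence could be read only where a peak reached into a tabled start window, as KO peaks of Alkbh3, Dus1l, Elp5, Mettl6, Mettl7b and Nsun4 did. The 2 whole sites found there are shown as examples, each with 12 bases on either side on the gene's strand and the 5 letters in capitals. 
Alkbh3 (KO peak, chr2:94010691-94010719, minus strand): agggtcgtgtcgGGACCtctgctcagggc
Mettl7b (KO peak, chr10:128960965-128960993, minus strand): tgggcagaggcaAAACTctagtgttccac
Alkbh3 was not called and Mettl7b fell, so that the examples come from genes with different changes in level. Whether these adenosines were methylated was not measured at single bases.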

How the data were processed

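Input and m6A antibody libraries of 2 per group were aligned with HISAT2 2.1.0 to mm10 and compared with DESeq2 1.18.1, per the submitters' processing notes; the sources used here name no counter, annotation or peak caller. The mean per gene in the authors' table is a signal, counts divided by size factors and averaged over 4 input libraries. The authors' fold change and its standard error are log2 values, per the file headers. The test statistic is a score of the authors, given beside their p-value and adjusted p-value (threshold 0.05). Each deposited peak has an enrichment, read here as a ratio of antibody over input RNA, and a value between 0 and 1, read as a deposited p-value that may or may not be adjusted.

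Library counts were recovered as the 4 whole numbers, each times a step of its library, that give the deposited mean (means up to 10000, with the fold change as a guide above a mean of 100). For the 1333 genes with a mean above 50 found without that guide, the deposited log2 changes were refitted to within 0.00456 (median 6.64e-07). Genes of lower mean were not refitted. Counts found with the guide are not checked independently in this way. The 186 genes not recovered enter the totals at the mean of their genotype and no test of libraries. As an alternative, limma 3.58.1 with a trend (R 4.3.3) was fitted to log2 of the normalized count plus 1 over 14071 genes. Both steps were tested on simulated data. The deposited tables held 0 columns of single libraries. Kit strand is stated in the labels, but strand in counting is not, so reads of overlapping genes may not be told apart; 35 members overlap another protein-coding gene.

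Members were grouped by mark. Named with library values are up to 4 called genes of smallest p and the most abundant gene per mark, or the 2 most abundant where none was called; of partner genes, the 8 called with the smallest p. Others were named after their values were seen. The members, lists and tests were chosen with earlier results of these data known. Start windows came from RefSeq (GRCm38.p6); 79 members matched, 5 under another name, and 67 had a window. A peak counts for a gene by the name in the list.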

Additional observations from a re-analysis of the deposited data

How the results depend on the processing

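The main test called 10 members higher and 15 lower, with a median log2 change of -0.09. On the recovered counts limma called 14 higher and 20 lower of 76, also with a pseudocount of 5. The 24 called members with counts kept their calls. Of all 14071 genes limma called 25.4% higher and 24% lower (49.3% in all), and with a pseudocount of 5 it called 3640 and 3414 genes. With libraries scaled to equal totals it called 44 higher and 7 lower, with a median of 0.73; the sizes of the totals and of the authors' size factors go opposite ways. Values that then turned to the opposite sign and were called, or were called falls before, were 0.36 for Dus1l, 0.13 for Mettl1, 0.15 for Elp5, 0.59 for Dus3l, 0.67 for Nsun2, 0.73 for Mettl4, 0.43 for Mettl9, 0.77 for Fbl, 0.79 for Ftsj3, 0.75 for Alkbh3, 0.72 for Trmt10b, 0.77 for Trmt1l, 0.45 for Trmt6 and 0.54 for Elp3 (the cause was not tested).

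When each library was left out in turn, limma called 0 to 16 members higher and 0 to 22 lower, with medians from -0.19 to 0.036. Without KO A or KO B, limma called 0 of 14071 genes, with the lone KO library assumed to vary like the WT pair (the cause was not tested; without WT A it called 3792 higher and 3449 lower, and without WT B 3799 and 3427); 5063 and 5406 genes, among them 10 and 7 members higher and 14 and 16 lower, had an unadjusted p under 0.05, and the called members had adjusted p-values from 0.0611 to 0.196. No called member changed sign when a library was left out. At an adjusted p under 0.01, 6 rose and 12 fell, and with a mean of at least 50 it was 10 and 16. The shares of all genes called at these settings were not computed. Among the 59 tested RNA enzymes and partners 8 rose and 8 fell (27.1%, against 42.5% of all tested genes). Without members whose span overlaps another protein-coding gene, a choice made after seeing the data, 5 rose and 6 fell, beside the same 42.5%. Peaks placed by the gene's span gave 10 members in both lists, 0 in WT alone and 21 in KO alone; peaks of at least 2 times the lowest enrichment gave 10, 0 and 19. Asking for 50% of each peak lowered the shared peaks of members from 13 to 6 in WT and from 12 to 6 in KO. No paired analysis was possible because the recovered libraries carry no replicate number. Depth limits the 8 members with a mean under 50.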
